A study of Mus musculus with 36 samples.

Results

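A group of 10 genes of iron and heme handling was followed across uncultured mouse monocytes and cultured macrophages and dendritic cells on 36 one-colour Agilent arrays. The members were Hamp, Spic, Slc40a1, Tfrc, Fth1, Hmox1, Slc11a1, Slc11a2, Hp and Cp, out of 17607 genes tested. Their probes were found by gene name, with Hamp listed under its older name Hamp1. The group was selected in part on the rise of Hamp and Spic with lipopolysaccharide (LPS) in these arrays, so every LPS difference below is a description and has no test. All 10 members passed the filter on dim probes, but Hamp passed it through the 3 Mreg_+LPS arrays alone. Hamp is therefore described by its levels, and counts of members cover the other 9 genes.

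Macrophages take up old red cells, break down their heme and return the iron to the blood. Heme oxygenase 1 (Hmox1) opens the heme ring, ferritin (Fth1 encodes its heavy chain) stores the freed iron, and ferroportin (Slc40a1) is the exporter through which iron leaves the cell. Hepcidin (Hamp), a peptide hormone made mostly in the liver, binds ferroportin and causes its loss from the membrane. Spic encodes a transcription factor of the PU.1 family known for its role in splenic red pulp macrophages. Transferrin receptor 1 (Tfrc) brings in iron bound to transferrin, and the metal transporters Slc11a1 (NRAMP1) and Slc11a2 (DMT1) move iron out of phagosomes and endosomes. Haptoglobin (Hp) binds free hemoglobin, and ceruloplasmin (Cp) oxidises iron for loading onto transferrin.

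The study had 12 groups of 3 arrays, numbered as 3 series in the labels. Monocytes were sorted from bone marrow as Ly6C+ Ly6G- CD11b+ cells and left uncultured, and the same sorted cells gave rise to all cultured groups but Mreg_unpurified. Cultures lasted 7 days, with any stimulus added for the final 24 h. M0, MΦ_IFN-γ, M1, M2a, M2b and M2c macrophages grew in 10% FCS with 20 ng/ml M-CSF. M0 received no stimulus, MΦ_IFN-γ received 25 ng/ml IFN-γ, and M1 received 25 ng/ml IFN-γ with LPS, which the labels give as 100 µg/ml. M2a received 20 ng/ml IL-4, M2c received 1e-07 M dexamethasone, and M2b received 25 ng/ml IFN-γ on dishes coated with 1 mg/ml human immunoglobulin. The regulatory macrophage (Mreg) cultures grew in 10% FCS, 10% human AB serum and 5 ng/ml M-CSF. Mreg received 25 ng/ml IFN-γ, Mreg_no IFN-γ received nothing, and Mreg_+LPS received IFN-γ with LPS at the same labelled doses as M1. Mreg_unpurified was treated as Mreg but began from adherent mononuclear cells of bone marrow, spleen and blood. Mo-DC grew in 10% FCS with 20 ng/ml GM-CSF and 20 ng/ml IL-4, and received 25 ng/ml IFN-γ. Serum and M-CSF dose change together between the Mreg and the M-CSF cultures, so their parts cannot be told apart. The Mreg cultures also lay on other slides than the M-CSF cultures. Among the M-CSF cultures, MΦ_IFN-γ and M2c lay on other slides than M0, and M1 on other slides than MΦ_IFN-γ. In these comparisons slide cannot be told apart from the culture or stimulus.

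Levels are log2 processed signal relative to the 75th percentile of the same array, so 0 is that percentile and each unit is a factor of 2. The 75th percentile signal ran from 320.0 to 648 and the share of probes well above background from 50.1% to 57.6%. Both LPS groups stood at the low end of that signal: Mreg_+LPS at 320.0 to 343 and M1 at 413 to 436, against 434.5 to 648 on the other arrays but 1 of Mreg_unpurified (334.5). Since every level is relative to this percentile, LPS differences are also given under quantile normalization where it moved them by over 1.5 times, and the part of the percentile in them was not tested. The lowest signal that still counted as well above background lay between -5.99 and -4.80, and values near or under it have no order. Labels were checked on marker lists, by the summed level of each list. The 11 macrophage genes summed to 9.69 to 9.88 in monocytes and 9.86 to 11.54 in cultured cells, and 10 of the 11 were above background on all monocyte arrays. The 7 Ly6C-high monocyte genes summed to 10.07 to 10.16 in monocytes and at most 9.19 elsewhere, but all 7 were above background in M2b too. The 9 dendritic cell genes summed to 8.05 to 8.18 in Mo-DC and at most 7.81 elsewhere. So the monocyte and dendritic cell lists differed in level between the labels, and presence alone does not separate them. The macrophage list overlapped between monocytes (up to 9.88) and Mo-DC (from 9.86). Of the 9 dendritic cell genes, 8 were above background on all Mo-DC arrays and Cd209a on none. The labels do not state if the 3 series are separate animals or cultures, so p-values measure the spread between these arrays, and their number limits the precision. In bulk RNA, fewer cells of a type and less RNA per cell cannot be told apart.

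The hepcidin result turns on a probe that has a close relative, so the probe sequences of Hamp and its paralog Hamp2 are shown. In the array's mm8 annotation the Hamp probe lies on the minus strand at chr7:30651231-30651290 and the Hamp2 probe on the minus strand at chr7:30631261-30631320. Laid over each other with an offset of 1 base, the 60-base probes were identical at 42 of 59 positions (71.2%), with 14 bases as the longest identical run. Capitals mark the 17 aligned positions at which they differ.
Hamp: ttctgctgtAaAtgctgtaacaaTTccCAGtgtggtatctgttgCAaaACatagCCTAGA
Hamp2: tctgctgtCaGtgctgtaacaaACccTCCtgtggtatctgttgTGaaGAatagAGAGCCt

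Promoter windows (the 250 bases before the annotated start) came from RefSeq, build GRCm38.p6, and were at hand for 6 of the 10 members: Hamp, Spic, Tfrc, Fth1, Slc11a1 and Cp. The windows of Hamp (chr7:30944030-30944279, minus strand) and Hamp2 (chr7:30924182-30924431, minus strand) are printed because both probes were brighter in Mreg_+LPS. Capitals mark matches to 7 short motifs searched on both strands.
Hamp: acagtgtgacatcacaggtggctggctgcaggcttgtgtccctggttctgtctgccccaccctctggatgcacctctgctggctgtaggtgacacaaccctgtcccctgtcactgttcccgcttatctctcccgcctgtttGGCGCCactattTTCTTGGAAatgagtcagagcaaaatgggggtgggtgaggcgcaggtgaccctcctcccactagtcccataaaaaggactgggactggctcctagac
Hamp2: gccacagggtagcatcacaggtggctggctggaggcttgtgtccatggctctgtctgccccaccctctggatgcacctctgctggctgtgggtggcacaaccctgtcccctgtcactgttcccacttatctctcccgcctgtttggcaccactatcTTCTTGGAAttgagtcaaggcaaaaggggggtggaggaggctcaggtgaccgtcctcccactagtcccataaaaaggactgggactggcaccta

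The Hamp window holds GGCGCC, the core of the element through which BMP signals act, at -109 to -104 from the start, and the STAT motif TTCNNNGAA at -97 to -89. The Hamp2 window holds the STAT motif at -94 to -86 and no match to GGCGCC. Of 32851 windows of this length, 9.59% hold GGCGCC and 7.02% hold TTCNNNGAA. The 5 other motifs were the interferon-stimulated response element core (GAAA, any 2 bases, GAAA; 2.98% of windows), an NF-κB motif (GGGA, any base, TTTCC; 0.356%), TTGCNNAA (C/EBP, 9.56%), TGACNNNGC (antioxidant response element core, 10.2%) and GAGGAA (PU box, 23.3%). No match overlapped another. The Spic window (chr10:88683024-88683273, minus strand) held none of the 7. GGCGCC also stood in 1 of 2 Tfrc windows, GAGGAA in the Slc11a1 window, and TTGCNNAA in 1 of 2 windows each of Fth1 and Cp. These matches describe letters and say nothing of binding.

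Hamp was above background in Mreg_+LPS and in no other group. Its levels there were 2.04, 0.35 and 0.54 on the 3 arrays, or 0.98 ± 0.92 (SD, n = 3). In Mreg without LPS they were -7.54, -7.59 and -7.95, and none of the 3 arrays was above background. Against the lowest measurable signal of the Mreg arrays, Hamp was at least 92.3-fold higher with LPS. In M1, which received the same IFN-γ and LPS, the levels were -5.42, -5.50 and -6.79, again with no array above background. Hamp was at least 64.6-fold higher in Mreg_+LPS than in M1, which is a description, as Hamp passed the filter through the Mreg_+LPS arrays alone. Such "at least" folds hold for the processed signal only: under normexp background correction the LPS difference in the Mreg culture was 4.06 on the log2 scale, which is below that bound.

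Hepatocytes are the main source of hepcidin in the body, so their markers were read beside it. Of the 10 hepatocyte genes on the array, 8 (among them Alb, Apoa1 and Ttr) did not pass the filter of 3 arrays above background, and Apoa2 was above background on no Mreg_+LPS array. The summed level of the 2 that passed ran from -2.36 to -1.84 in Mreg_+LPS and from -2.94 to -1.77 in Mreg.

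The Hamp2 probe also stood higher in Mreg_+LPS, at -2.67, -2.58 and -2.78, against -6.06, -5.25 and -6.24 in Mreg, a difference of at least 6.99-fold. Unlike Hamp, it was highest in Mo-DC, at -2.29, -2.20 and -1.98, where Hamp was at -6.08, -6.61 and -6.59 and not above background. How far the Hamp and Hamp2 probes bind each other's transcript was not tested. Over the 36 arrays, the genes whose levels went most closely with Hamp were Bend7 (r = 0.970), Maea (0.958), Jak1 (0.948), Adamts4 (0.947) and Patl1 (0.945), where the median r of all genes was 0.078. These correlations rest on the 3 Mreg_+LPS arrays, which are the only ones where Hamp, Bend7 or Adamts4 was above background.

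**Figure D1:**
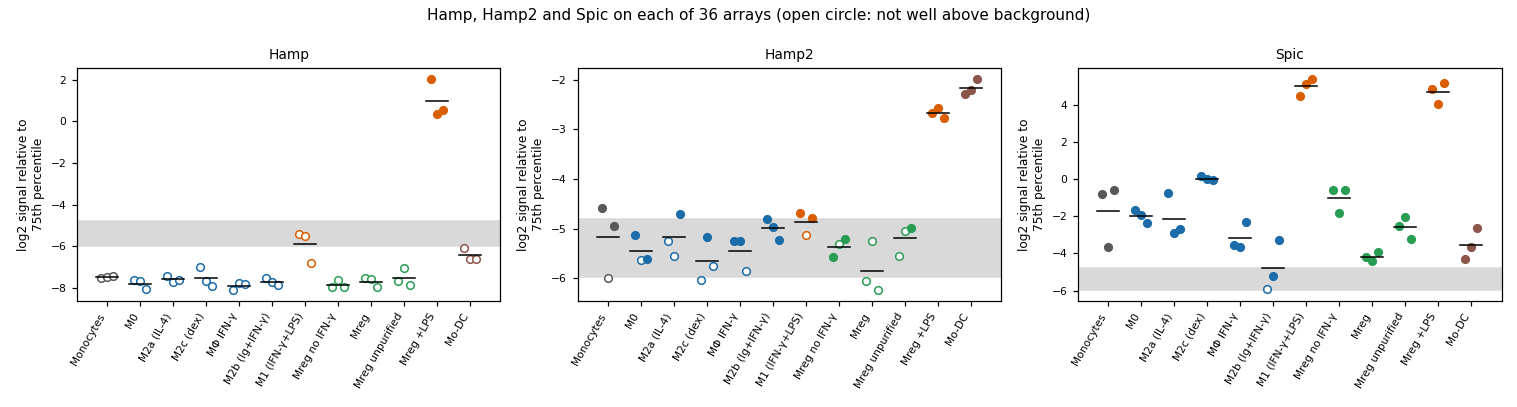
Levels of Hamp, Hamp2 and Spic (log2 signal relative to the array's 75th percentile) on 36 arrays in 12 groups; lines are group means, open circles were not well above background, and the grey band is the range of the lowest measurable signal. Hamp is at 0.35 to 2.04 in Mreg +LPS and below background elsewhere, while Spic is at 4.01 to 5.39 in M1 and Mreg +LPS and at most 0.15 in the other groups.

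Spic was high in both LPS groups and low in the other 10. M1 had levels of 4.44, 5.11 and 5.39 and Mreg_+LPS levels of 4.83, 4.01 and 5.17. Without LPS the levels were -3.56, -3.67 and -2.29 in MΦ_IFN-γ and -4.18, -4.42 and -3.95 in Mreg. As a description, the LPS difference was 8.85 in the Mreg culture and 8.15 in M-CSF macrophages on the log2 scale (463-fold and 285-fold), or 7.12 and 7.14 under normexp correction. The arrays of M1 and Mreg_+LPS overlapped, with a difference of -0.31 between their means. In M1, Spic was at its highest group mean while Hamp was not above background.

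Below those 2 groups, Spic was lower with IFN-γ in the Mreg culture and higher with dexamethasone. Mreg_no IFN-γ had -0.59, -1.83 and -0.59, so that Spic fell 9.08-fold with IFN-γ in the Mreg culture (log2 difference -3.18 ± 0.69 SE; limma, adjusted p = 0.00116). The Mreg arrays of this test also entered the LPS difference by which Spic was picked, so the fall is not independent of that choice. Under normexp correction it was -1.98 (limma, adjusted p = 0.00106). In M-CSF macrophages the IFN-γ difference was -1.19 ± 0.69 (limma, adjusted p = 0.255). The MΦ_IFN-γ arrays of this test likewise entered the LPS difference by which Spic was picked. M2c came next below the LPS groups, at 0.15, -0.02 and -0.04, above all 3 M0 arrays at -1.66, -1.91 and -2.38. This 4.03-fold rise passed the test (log2 difference 2.01 ± 0.69 SE; limma, adjusted p = 0.0368), but with any 1 of the 6 arrays left out the adjusted p was between 0.0601 and 0.12, and under normexp correction the difference was 1.34 (adjusted p = 0.0251). Monocytes were uneven, at -0.83, -3.67 and -0.59, and M2b at -5.92, -5.22 and -3.26 with 2 of 3 arrays above background.

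A second Spic probe (chr10:88105220-88105279 on mm8, beside the first at chr10:88105107-88105166) gave the same order for the top 4 groups and went with the first over the 36 arrays (r = 0.985). The genes most alike to Spic were Tnfrsf1b (r = 0.916), Tnip1 (0.912), Znrf1 (0.901), Gucd1 (0.885) and Psmd10 (0.879), against a median of 0.053 over all genes. Arrays of a group share their culture, so the 36 points are not independent. Spic was at 4.01 to 5.39 on the M1 and Mreg_+LPS arrays and at most 0.15 on the others. These correlations therefore draw on the LPS difference by which Spic was picked and are a description.

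The iron exporter Slc40a1 was lowered by IFN-γ in both cultures. Its levels were 4.64, 4.66 and 4.21 in M0 and 2.42, 1.94 and 2.49 in MΦ_IFN-γ, with no overlap. This was a 4.65-fold fall (log2 difference -2.22 ± 0.41 SE; limma, adjusted p = 0.000189). In the Mreg culture, levels of 5.18, 4.04 and 4.49 without IFN-γ stood against 2.58, 2.64 and 2.24 with it, a 4.23-fold fall (-2.08 ± 0.41 SE; limma, adjusted p = 0.000516). The difference between these 2 responses was 0.14 ± 0.59 (limma, adjusted p = 0.98).

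IL-4 lowered Slc40a1 as well: M2a had 3.54, 2.72 and 2.33, 3.11-fold below M0 (log2 difference -1.64 ± 0.41 SE; limma, adjusted p = 0.00813). The highest group was M2c at 5.29, 4.99 and 4.71, but its distance from M0 did not pass (0.50 ± 0.41; limma, adjusted p = 0.474). Mo-DC was lowest and spread widely, at 1.19, 0.13 and -0.78, 4.29-fold below MΦ_IFN-γ (-2.10 ± 0.41 SE; limma, adjusted p = 0.000141). Under IFN-γ with LPS the cultures differed: Mreg_+LPS had 1.53, 1.80 and 2.32 and M1 had 3.60, 3.86 and 3.58, so Slc40a1 was 3.48-fold lower in Mreg_+LPS (-1.80 ± 0.41 SE; limma, adjusted p = 0.000561). The LPS differences themselves, given without a test, were -0.61 in the Mreg culture, where the groups overlapped, and 1.40 in M-CSF macrophages, where they did not. Snx27 (r = 0.854), Mfsd6 (0.826), Slc43a2 (0.802), Lrrc57 (0.793) and Slc26a11 (0.791) were the genes most alike to Slc40a1, against a median of -0.014 over all genes.

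Transferrin receptor 1 was read by 10 spots per array, whose log2 signals had a median SD of 0.0538 within an array. Tfrc was highest in M2a, at 3.51, 3.07 and 3.17, followed without overlap by M0 at 1.82, 2.31 and 2.13. IL-4 thus raised it 2.24-fold (log2 difference 1.16 ± 0.19 SE; limma, adjusted p = 0.000126) while it lowered the exporter Slc40a1. IFN-γ lowered Tfrc 2.11-fold in M-CSF macrophages, to 1.01, 1.08 and 0.94 (-1.08 ± 0.19 SE; limma, adjusted p = 0.000115). It also lowered Tfrc 1.89-fold in the Mreg culture, from 1.30, 1.29 and 1.36 to 0.59, 0.23 and 0.36 (-0.92 ± 0.19 SE; limma, adjusted p = 0.000886). Dexamethasone lowered it 2.08-fold, to 0.95, 1.15 and 0.99 (-1.06 ± 0.19 SE; limma, adjusted p = 0.000228).

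At each matched stimulus Tfrc was lower in the Mreg culture than in the M-CSF culture. The log2 difference was -0.77 ± 0.19 without a stimulus (limma, adjusted p = 0.00291), -0.62 ± 0.19 with IFN-γ (limma, adjusted p = 0.0172) and -0.69 ± 0.19 with IFN-γ and LPS (limma, adjusted p = 0.00362). The second of these missed the threshold without Mreg replicate 2 (adjusted p = 0.0851) or without MΦ_IFN-γ replicate 2 (adjusted p = 0.0578). These comparisons share no array with each other, but they are not independent. The Mreg groups lay on the same slides, M0 and M1 also shared slides, and the same fit gave the spread for all. The 2 LPS groups were the lowest of all 12, M1 at 0.11, -0.26 and -0.39 and Mreg_+LPS at -0.72, -0.69 and -1.18, and the LPS differences, not tested, were -1.19 and -1.26. In Mo-DC, Tfrc was 1.40-fold below MΦ_IFN-γ (-0.48 ± 0.19 SE; limma, adjusted p = 0.0406), a call that 5 of the 6 fits with 1 array left out did not make (adjusted p up to 0.188).

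Slc11a1, the phagosomal metal transporter, was at 3.29 ± 0.49 (SD, n = 3) in monocytes and between 4.57 and 7.93 as group means in the cultured cells. IFN-γ raised it 1.59-fold in M-CSF macrophages, from 6.28, 6.32 and 6.18 to 6.99, 6.94 and 6.87 (log2 difference 0.67 ± 0.19 SE; limma, adjusted p = 0.00832). In the Mreg culture the levels were 7.10, 6.81 and 6.91 without IFN-γ and 6.98, 6.75 and 6.80 with it, and the difference of -0.09 ± 0.19 did not pass (limma, adjusted p = 0.814). Mreg_no IFN-γ was already 1.60-fold above M0 (0.68 ± 0.19 SE; limma, adjusted p = 0.00596). Mo-DC had 4.67, 4.43 and 4.62, 5.13-fold below MΦ_IFN-γ (-2.36 ± 0.19 SE; limma, adjusted p = 6.15e-11). The 2 LPS groups were highest, M1 at 7.97, 7.97 and 7.86 and Mreg_+LPS at 7.72, 7.26 and 7.60. The LPS differences were 1.00 and 0.68, or 0.60 and 0.04 under quantile normalization.

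**Figure D2:**
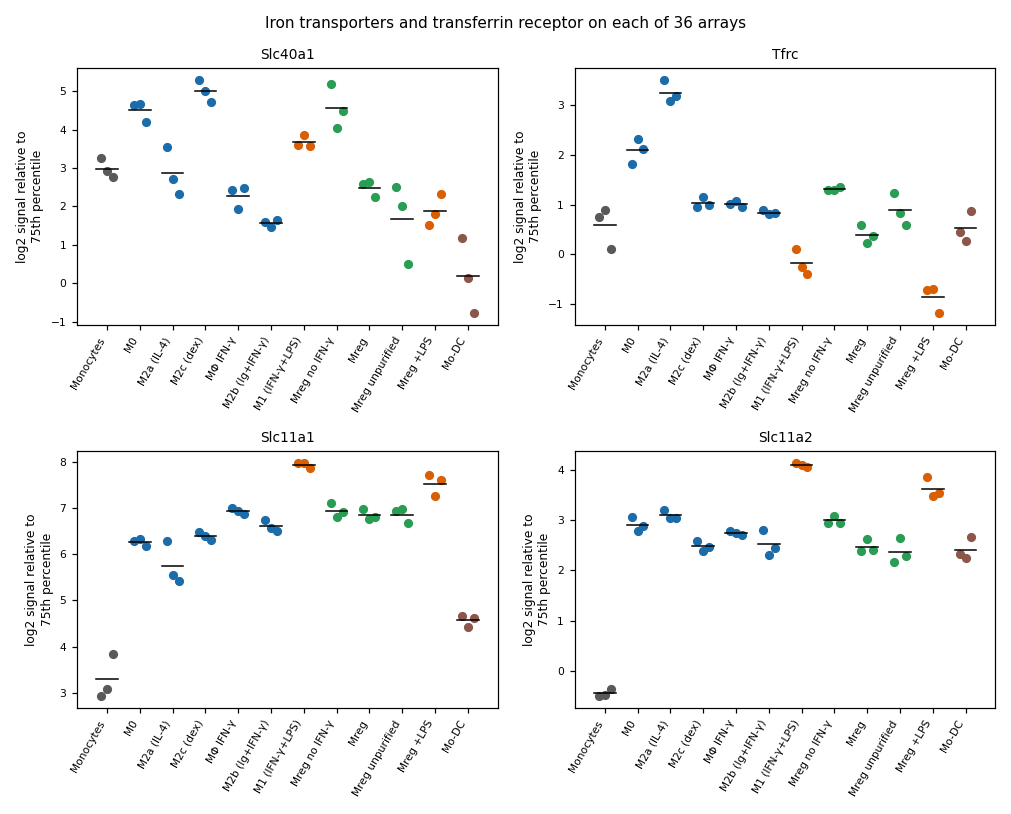
Levels of Slc40a1, Tfrc, Slc11a1 and Slc11a2 (log2 signal relative to the array's 75th percentile) on 36 arrays in 12 groups; points are arrays and lines are group means. Slc40a1 and Tfrc are lower in both IFN-γ groups than in their unstimulated cultures, M2a is highest for Tfrc (3.07 to 3.51), and Mo-DC is lowest of the cultured groups for Slc11a1 (4.43 to 4.67).

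Slc11a2 has 3 probes that gave different answers, and any statement on it needs the probe named. All lie on the minus strand of chromosome 15 (mm8). The brightest, at chr15:100215936-100215995, is nearest the 3′ end, a middle probe lies at chr15:100220950-100221009 and the one farthest from the 3′ end at chr15:100238119-100238178. The gene is known to make transcripts with alternative 3′ ends. The brightest probe correlated with the middle one at r = 0.793 and with the farthest at r = 0.655 over the 36 arrays.

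On the brightest probe, Slc11a2 was at -0.49, -0.47 and -0.35 in monocytes and 3.07, 2.78 and 2.88 in M0, a 10.2-fold rise (log2 difference 3.35 ± 0.13 SE; limma, adjusted p = 6.34e-18), or 2.29 as the mean of the 3 probes. IFN-γ lowered it 1.44-fold in the Mreg culture (-0.52 ± 0.13 SE; limma, adjusted p = 0.00438; 0.0565 under normexp correction). Dexamethasone lowered it 1.35-fold (-0.43 ± 0.13 SE; limma, adjusted p = 0.0185), and this call was lost under normexp correction (adjusted p = 0.187) and without M0 replicate 1, M2c replicate 2 or M2c replicate 3 (adjusted p 0.109, 0.0787 and 0.0535). Mo-DC was 1.25-fold below MΦ_IFN-γ (-0.33 ± 0.13 SE; limma, adjusted p = 0.0411), a call made in 1 of the 6 fits with 1 array left out.

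The middle probe showed the largest LPS difference of the 3. It stood at 1.31 ± 0.13 in Mreg_+LPS and -2.86 ± 0.33 in Mreg (SD, n = 3 each), a difference of 4.17, and at -0.60 ± 0.09 in M1 and -3.04 ± 0.14 in MΦ_IFN-γ, a difference of 2.44. The brightest probe gave 1.15 and 1.36 for the same contrasts. Between Mreg_+LPS and M1 the probes had opposite signs. The brightest was 1.39-fold lower in Mreg_+LPS (-0.47 ± 0.13 SE; limma, adjusted p = 0.00308), while the middle one was 3.76-fold and the farthest 1.80-fold higher, and the mean of the 3 probes was higher by 0.76 ± 0.18 (limma, adjusted p = 0.000665). In Mo-DC against MΦ_IFN-γ the mean of the probes was likewise of the other sign, at 0.40 ± 0.18 (limma, adjusted p = 0.0659).

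**Figure D3:**
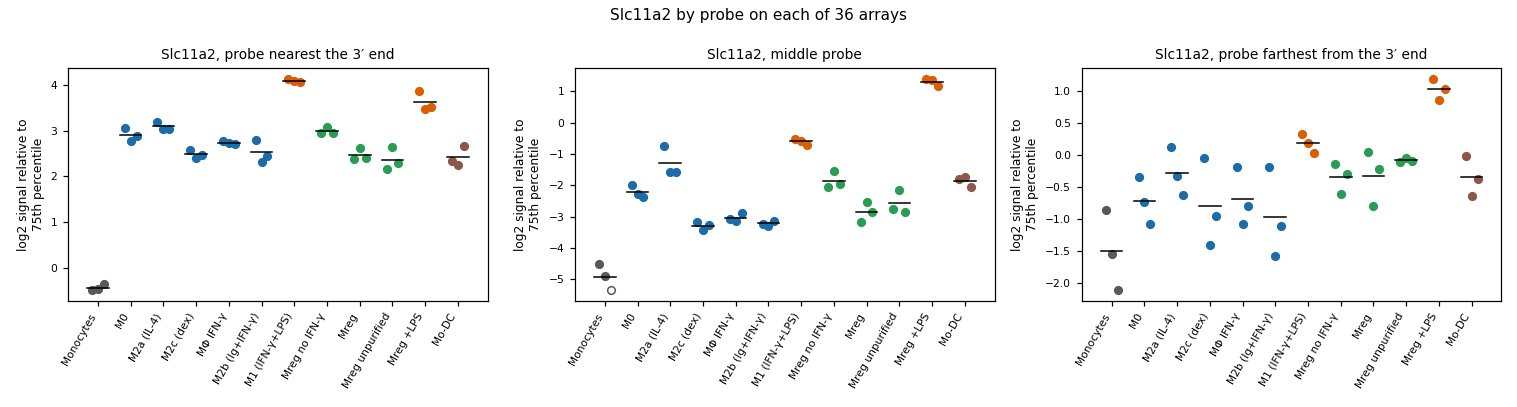
Levels of the 3 Slc11a2 probes (log2 signal relative to the array's 75th percentile) on 36 arrays in 12 groups; points are arrays, lines are group means and the open circle was not well above background. On the probe nearest the 3′ end M1 is above Mreg +LPS, and on the other 2 probes Mreg +LPS is above M1.

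Ferritin heavy chain (Fth1) was bright in every group and moved little. Its lowest group was monocytes, at 8.08, 8.12 and 8.57, and its highest was Mreg_+LPS, at 10.22, 10.22 and 10.02. The rise from monocytes to M0 was 2.27-fold (log2 difference 1.19 ± 0.14 SE; limma, adjusted p = 3.86e-08). IFN-γ differences were -0.09 in the Mreg culture and -0.11 in M-CSF macrophages, and neither passed (limma, adjusted p = 0.751 and 0.673). Mreg_+LPS was 1.28-fold above M1 (0.35 ± 0.14 SE; limma, adjusted p = 0.0379), but the call was lost in 5 of 6 fits with 1 array left out (adjusted p up to 0.117) and under quantile normalization (0.12; adjusted p = 0.41). No Fth1 spot was saturated. The LPS differences depended on the scaling: 0.68 in the Mreg culture became 0.03 under quantile normalization, and 0.48 in M-CSF macrophages became -0.24. That normalization moved the median LPS difference of all genes from 0.17 to -0.02 in the Mreg culture and from 0.12 to -0.01 in M-CSF macrophages.

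Heme oxygenase 1 rose from monocytes to M0 and fell with IFN-γ in both cultures. Hmox1 was at 3.59, 3.06 and 4.19 in monocytes and 7.63, 7.74 and 7.40 in M0, a 15.7-fold rise (log2 difference 3.98 ± 0.31 SE; limma, adjusted p = 9.44e-12). IFN-γ lowered it 3.19-fold in M-CSF macrophages, to 5.79, 5.89 and 6.07 (-1.67 ± 0.31 SE; limma, adjusted p = 0.000156). In the Mreg culture it fell 3.26-fold, from 9.01, 9.03 and 8.81 to 6.83, 7.69 and 7.22 (-1.70 ± 0.31 SE; limma, adjusted p = 0.000168). The 2 falls differed by -0.03 ± 0.43 (limma, adjusted p = 0.994).

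Hmox1 was higher in the Mreg culture than in the M-CSF culture, 2.57-fold without a stimulus (1.36 ± 0.31 SE; limma, adjusted p = 0.00112) and 2.51-fold with IFN-γ (1.33 ± 0.31 SE; limma, adjusted p = 0.0016). With IFN-γ and LPS the sign was the other way but did not pass: Mreg_+LPS had 8.74, 9.08 and 9.10, M1 had 9.50, 9.73 and 9.64, and the difference was -0.65 ± 0.31 (limma, adjusted p = 0.0754; -1.09 with adjusted p = 0.00283 under quantile normalization). The LPS differences, without a test, were 3.71 in M-CSF macrophages and 1.72 in the Mreg culture, or 3.28 and 0.86 under quantile normalization. Mo-DC was 2.41-fold above MΦ_IFN-γ (1.27 ± 0.31 SE; limma, adjusted p = 0.00121). M2a and Mreg_unpurified were uneven, at 8.54, 7.62 and 7.31 and at 8.01, 8.63 and 7.09.

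**Figure D4:**
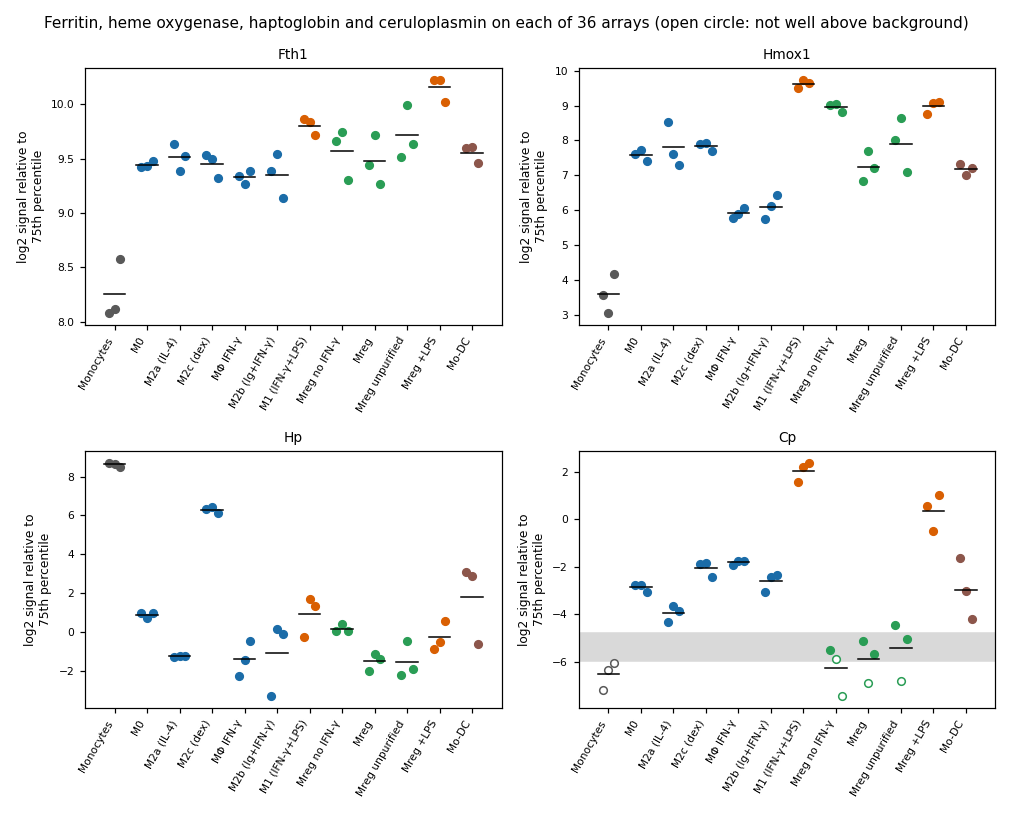
Levels of Fth1, Hmox1, Hp and Cp (log2 signal relative to the array's 75th percentile) on 36 arrays in 12 groups; points are arrays, lines are group means, open circles were not well above background and the grey band in the Cp panel is the range of the lowest measurable signal. Hp is at 8.50 to 8.70 in monocytes and 6.11 to 6.42 in M2c and at most 3.08 elsewhere, and Cp is highest in M1 (1.59 to 2.38) and Mreg +LPS (-0.50 to 1.03).

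Haptoglobin was highest in monocytes and, among cultured cells, in dexamethasone-treated macrophages. Hp was at 8.70, 8.66 and 8.50 in monocytes and 1.00, 0.73 and 0.97 in M0, a 211-fold fall (log2 difference -7.72 ± 0.77 SE; limma, adjusted p = 1.55e-09). Dexamethasone brought it to 6.34, 6.42 and 6.11 in M2c, 41.9-fold above M0 (5.39 ± 0.77 SE; limma, adjusted p = 1.11e-05). No other group had an array above 3.08. Hp is also a product of granulocyte precursors, so their 13 marker genes were read beside it: all 13 were above background on every monocyte array, where their summed level was 11.71 to 12.03, against 2.55 to 2.88 in M0 and 4.71 to 4.89 in M2c. In M2c, 7 of the 13 were above background on all 3 arrays, and Elane, Ngp, Camp and Cxcr2 on none. In M0, 8 were above background on all 3 arrays, and Elane, Retnlg and Cxcr2 on none. The part of such cells in the Hp differences was not tested.

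IFN-γ lowered Hp 4.88-fold in M-CSF macrophages (-2.29 ± 0.77 SE; limma, adjusted p = 0.0327), but 5 of the 6 fits with 1 array left out did not call it (adjusted p up to 0.162). The Mreg culture gave -1.68 ± 0.77 (limma, adjusted p = 0.136). Within Mo-DC, replicates 1 and 2 were at 3.08 and 2.87 and replicate 3 at -0.61. Against MΦ_IFN-γ, Mo-DC was higher by 3.17 ± 0.77 (limma, adjusted p = 0.00133) with overlapping arrays, and by 4.36 ± 0.70 without Mo-DC replicate 3 (adjusted p = 1.47e-05). It missed the threshold when only the 2 groups compared were fitted (adjusted p = 0.0544), and the arrays of scan day 1 alone gave 2.07 (adjusted p = 0.0469). The granulocyte markers summed to 3.44 to 4.90 in Mo-DC and 2.03 to 2.74 in MΦ_IFN-γ. IL-4 gave -2.16 ± 0.77 (limma, adjusted p = 0.0674), which became a call with the series number as a block (adjusted p = 0.0469).

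Ceruloplasmin was lower in the Mreg than in the M-CSF culture under each matched stimulus. Cp was at -2.75, -2.78 and -3.05 in M0 but at -5.50, -5.87 and -7.46 in Mreg_no IFN-γ, where 1 of 3 arrays was above background. The measured log2 difference was -3.41 ± 0.58 (limma, adjusted p = 5.34e-05), and -0.92 under normexp correction (adjusted p = 0.0488). Its size rests on values below background, so no fold is given. With IFN-γ, Mreg had -5.15, -6.89 and -5.66, with 2 arrays above background, and MΦ_IFN-γ had -1.94, -1.74 and -1.77, a measured log2 difference of -4.08 ± 0.58 (limma, adjusted p = 6e-06), and -1.62 under normexp correction (adjusted p = 0.000522). With LPS too, both cultures were well above background: Mreg_+LPS had 0.55, -0.50 and 1.03, 3.24-fold below M1 at 1.59, 2.20 and 2.38 (-1.70 ± 0.58 SE; limma, adjusted p = 0.0155). That last call was lost without M1 replicate 3 (adjusted p = 0.0565) or without Mreg_+LPS replicate 2 (adjusted p = 0.102). The LPS differences were 6.26 in the Mreg culture (3.47 under normexp correction) and 3.87 in M-CSF macrophages. No monocyte array was above background, and Cp in M0 was at least 5.57-fold higher (measured log2 difference 3.67 ± 0.58 SE; limma, adjusted p = 4.1e-06; 1.1 under normexp correction, adjusted p = 0.00561).

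**Figure D5:**
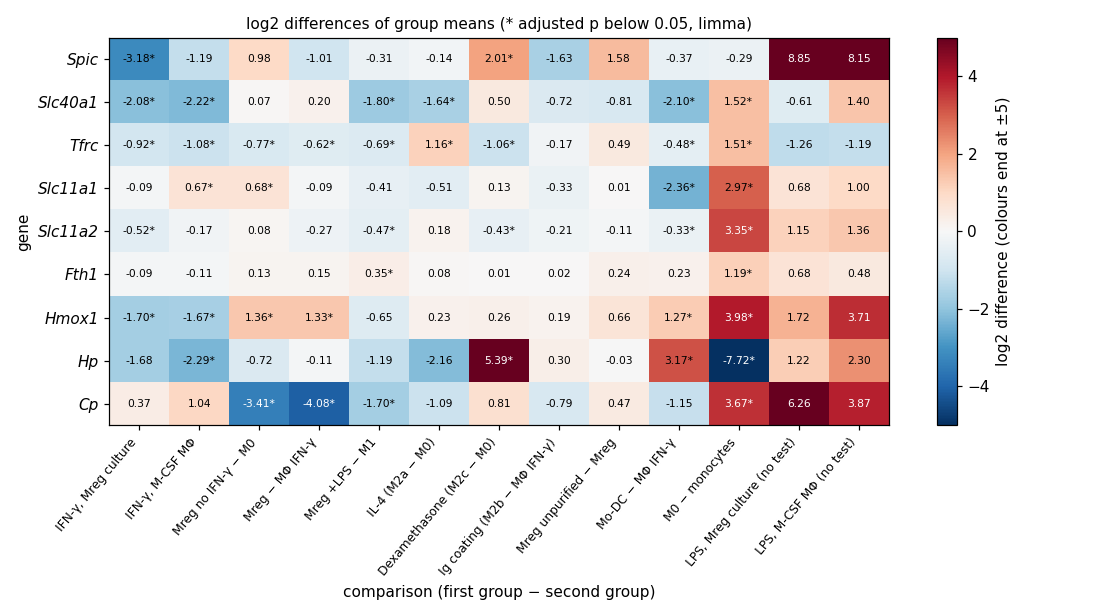
Differences of group means (log2) for 9 genes in 13 comparisons, with numbers in the cells, colours from blue (lower in the group named first) to red (higher), and an asterisk where limma's adjusted p was below 0.05; the 2 LPS columns were not tested. Slc40a1, Tfrc and Hmox1 are lower with IFN-γ in both cultures, and Hp has the largest tested rise (5.39, dexamethasone) and fall (-7.72, M0 against monocytes).

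Set out by comparison, IFN-γ in the Mreg culture gave a call for 5 of the 9 counted members, all lower: Spic, Slc40a1, Tfrc, Hmox1 and Slc11a2. Spic is in this count and in the median below, although the Mreg arrays entered the LPS difference by which it was picked. Of all genes tested, 20.2% were called, 9.36% as higher and 10.8% as lower. The median difference of the 9 was -0.92 against -0.06 over all genes. In M-CSF macrophages IFN-γ gave 5 calls, with Slc40a1, Tfrc, Hmox1 and Hp lower and Slc11a1 higher, where 21.9% of all genes were called, 11% as higher and 10.9% as lower. The median of the 9 was -1.08 against -0.01 over all genes. Spic is in this median too, although the MΦ_IFN-γ arrays entered the LPS difference by which it was picked. No member passed the test of the difference between the 2 responses, where 1.32% of all genes were called, 0.966% with a higher and 0.352% with a lower response in the Mreg culture.

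Lists of related genes, which include members, gave the following counts with IFN-γ. Of all genes, 10.8% were lower and 9.36% higher in the Mreg culture. Of 15 genes of iron transport tested, 6 were lower and 0 higher there (median -0.54). The members Slc40a1, Tfrc and Slc11a2 were among these 6, and the others were Tfr2, Slc39a8 and Hfe. In M-CSF macrophages 6 were lower and 1 higher (median -0.21), where 10.9% of all genes were lower and 11% higher. The lower ones were Slc40a1, Tfrc, Trf, Steap3, Slc39a8 and Hfe, and the higher one was the member Slc11a1. Beside Slc40a1, Hfe, which encodes a protein that regulates hepcidin, fell 2.53-fold in the Mreg culture (limma, adjusted p = 2.22e-05), and Slc39a8, a metal importer, fell 3.53-fold in M-CSF macrophages (limma, adjusted p = 7.98e-05). Of 15 genes of heme and hemoglobin handling, 6 were lower and 0 higher in each culture, with medians of -0.50 and -0.39, counting Hmox1 in both and Hp in M-CSF macrophages. Cd163, the receptor for haptoglobin-hemoglobin complexes, fell 7.67-fold in M-CSF macrophages (limma, adjusted p = 0.0281), where 1 of 3 MΦ_IFN-γ arrays was above background. Of 10 genes of iron storage and its control, 1 rose and 2 fell in each culture. The one that rose in both was Fbxl5, a subunit of the ligase that degrades iron regulatory protein 2, up 2.76-fold in the Mreg culture and 2.29-fold in M-CSF macrophages (limma, adjusted p = 2.3e-06 and 2.76e-05).

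Among 25 genes of hepcidin control, of which Hamp itself was not tested, 4 rose and 2 fell with IFN-γ in the Mreg culture and 6 rose and 5 fell in M-CSF macrophages. Of all genes, 9.36% were higher and 10.8% lower in the Mreg culture, and 11% and 10.9% in M-CSF macrophages. The list counts were not tested against these shares. Socs3, a feedback inhibitor of cytokine signalling, rose 75.5-fold and 21.0-fold (limma, adjusted p = 2.01e-12 and 1.89e-09). A list of 14 Spic and red pulp macrophage genes included Spic itself, and 1 rose and 2 fell in the Mreg culture. The 2 that fell were Spic and Treml4. Irf8 rose 4.09-fold and Treml4 fell 5.86-fold (limma, adjusted p = 2.29e-08 and 0.000184). In M-CSF macrophages 3 rose and 3 fell. Alas1, which starts heme synthesis, fell 2.01-fold in the Mreg culture and 2.60-fold in M-CSF macrophages (limma, adjusted p = 0.013 and 0.000709). Of the 15 genes of heme synthesis, 2 rose and 5 fell in the former and 3 rose and 2 fell in the latter, with medians of -0.23 and -0.17. Slc25a37, a mitochondrial iron importer, rose 2.91-fold in M-CSF macrophages (limma, adjusted p = 5.48e-06) and was the one gene of the iron, heme and acute phase lists whose 2 IFN-γ responses differed, by -1.24 ± 0.31 (limma, adjusted p = 0.0384).

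Comparing the cultures, Mreg_no IFN-γ against M0 gave 4 calls among the 9 members, with Hmox1 and Slc11a1 higher and Tfrc and Cp lower, where 30.6% of all genes were called, 17.1% as higher and 13.5% as lower. Mreg against MΦ_IFN-γ gave 3, with Hmox1 higher and Tfrc and Cp lower, where 27.7% were called, 13.8% as higher and 13.9% as lower. Mreg_+LPS against M1 gave 5, with Fth1 higher and Slc40a1, Tfrc, Cp and the brightest Slc11a2 probe lower (the mean of its 3 probes was higher), where 53.5% were called, 29% as higher and 24.5% as lower. Which members were called here changed with the scaling. Under quantile normalization Fth1 lost its call (limma, adjusted p = 0.41). Hmox1 (-1.09) and Slc11a1 (-0.71, against -0.41 in the main fit) gained a call there (limma, adjusted p = 0.00283 and 0.000877). The share of members was near that of all genes in this last comparison, and their median was -0.65 against 0.05. Spic is in that median, although both groups entered the LPS differences by which it was picked. Fbxl5 was higher in the Mreg culture without a stimulus (2.06-fold; limma, adjusted p = 0.000123) and with IFN-γ (2.49-fold; limma, adjusted p = 7.75e-06). Slc46a1, a heme and folate transporter, was 2.91-fold higher with IFN-γ and 4.71-fold higher with IFN-γ and LPS (limma, adjusted p = 2.19e-07 and 3.32e-11). Ncoa4, the receptor that delivers ferritin for breakdown, was 2.88-fold higher in Mreg_+LPS than in M1 (limma, adjusted p = 6.61e-09).

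The Mreg_+LPS group, where Hamp was above background, had less RNA than M1 for 2 cytokines known to raise hepcidin. The part of these cytokines in the Hamp levels was not tested, and their proteins were not measured here. Il6 was 70.2-fold and Il1b 48.4-fold lower (limma, adjusted p = 8.41e-11 and 5.63e-07), with both genes above background on all 6 arrays. Bmp2 was above background on all 3 M1 arrays and on no Mreg_+LPS array, at least 2.18-fold lower (limma, adjusted p = 7.79e-06). Over the hepcidin-control genes, 6 were higher and 9 lower in Mreg_+LPS, in a comparison where 29% of all genes were higher and 24.5% lower. The 6 higher ones were Hamp2, Cebpa, Jak2, Il6st, Smad1 and Smad4, with log2 differences of 0.29 to 2.20. The highest was Hamp2, the paralog of Hamp, and how far its probe binds the Hamp transcript was not tested. Bmp6, Tmprss6 and Hjv did not pass the filter on dim probes.

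Among the M-CSF macrophages, IL-4 gave 2 calls among the 9 members, Tfrc higher and Slc40a1 lower, where 12.4% of all genes were called, 6.66% as higher and 5.75% as lower. Slc39a8 fell 2.23-fold (limma, adjusted p = 0.014). Dexamethasone gave 4, with Spic and Hp higher and Tfrc and Slc11a2 lower, where 20.4% were called, 9.87% as higher and 10.6% as lower. Of 15 genes of heme and hemoglobin handling, 4 rose and 0 fell with dexamethasone (median 0.19), Hp among them, and Cd163 rose 11.7-fold (limma, adjusted p = 0.00901). Of 11 acute phase genes, 6 rose and 0 fell, Hp among them (median 1.75 against 0.02 over all genes), with Saa3 up 33.3-fold and the siderophore-binding Lcn2 up 32.0-fold (limma, adjusted p = 3.76e-05 and 0.000352). Lcn2 was above background on 1 of 3 M0 arrays. Immunoglobulin coating with IFN-γ gave no call among the members, where 3.91% of all genes were called, 2.14% as higher and 1.77% as lower. Transferrin (Trf) and biliverdin reductase B (Blvrb) fell there 3.78-fold and 2.09-fold (limma, adjusted p = 0.00134 and 0.00562).

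Mreg_unpurified against Mreg gave no call among the 9 members, where 12% of all genes were called, 6.61% as higher and 5.36% as lower. Without Mreg_unpurified replicate 3 there were 2 calls, Tfrc and Hmox1 (log2 0.64 and 1.07; limma, adjusted p = 0.0469 and 0.0205). Mo-DC against MΦ_IFN-γ gave 6, with Hmox1 and Hp higher and Slc40a1, Tfrc, Slc11a1 and Slc11a2 lower, where 46.8% were called, 21.8% as higher and 25% as lower. Tfr2, a second transferrin receptor, was above background on all Mo-DC and no MΦ_IFN-γ arrays, at least 8.44-fold higher (limma, adjusted p = 2.89e-15). Alas1 was 10.9-fold higher in Mo-DC (limma, adjusted p = 2.22e-10).

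M0 against monocytes gave 8 calls, 7 higher and Hp lower, where 62.9% of all genes were called, 29.9% as higher and 33% as lower. Spic did not pass (-0.29 ± 0.69; limma, adjusted p = 0.735), and its difference was 1.75 in series 2 but -0.83 and -1.79 in the others. Iron transport had 12 genes higher and 3 lower of 15 (median 1.55 against -0.08 over all genes), and heme and hemoglobin handling 10 higher and 2 lower of 15 (median 1.39). Ftl1, the ferritin light chain, rose 6.73-fold and Blvrb 12.2-fold (limma, adjusted p = 9.59e-16 and 1.08e-13). All 13 granulocyte markers were above background on every monocyte array, and 8 of 9 erythroid genes were too, with summed erythroid levels of 5.38 to 6.37 there and -1.99 to -1.62 in M0. Their part in these differences was not tested.

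As a description, LPS moved 5 of the 9 members at least 2-fold up and 1 down in the Mreg culture, where 27.7% of all genes differed at least 2-fold, 13.3% higher and 14.4% lower. In M-CSF macrophages it moved 7 up and 1 down, where the shares were 22.7%, 11.2% and 11.5%. Under quantile normalization Hmox1 and Slc11a2 in the Mreg culture stood below 2-fold (0.86 and 0.79). Tfrc was the member at least 2-fold lower in both. Of 11 acute phase genes, with Hp, Cp and in the Mreg culture Hamp among them, 10 were at least 2-fold higher in the Mreg culture and 8 in M-CSF macrophages, with medians of 6.26 and 3.87. Because the members were picked with these contrasts known, nothing is read from the counts.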

How the data were processed

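RNA was hybridised singly (Cy3) to 36 Agilent arrays of mouse cells, 3 in each of 12 groups, per the labels' protocols. The deposited scanner intensity is gProcessedSignal, background-corrected by Agilent Feature Extraction 10.5.1.1 per the file headers. Outlier spots were left out, repeat spots averaged, log2 taken and each array's 75th percentile subtracted. The authors' deposited series table holds log2 values (column medians 4.33 to 4.38; r with the scanner values at least 0.997; its scaling is not given in the sources used here), used as an alternative. Of 41174 probes, 24375 were named by accession, 8727 by symbol or synonym, and 8072 kept the file's name. A probe was tested if 3 or more of the 36 arrays flagged it well above background, and the brightest stood for its gene (17607 genes).

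limma 3.58.1 (R 4.3.3) fitted 1 mean per group over all 36 arrays, with Benjamini-Hochberg adjustment over all genes; a call needs adjusted p below 0.05 and a probe above background on an array of either group (of all 4 groups for the difference of responses). "At least" folds set the dim group at the lowest signal well above background. The script was tested on simulated data. Members, lists and tests were chosen with earlier results of these data known. Named beside the members were, in each list and comparison, up to 3 called genes of at least 2-fold without overlap, and the 5 genes most correlated with Hamp, Spic and Slc40a1. Alternatives were normexp, quantile normalization, dim-probe filters, mean of probes, the authors' table, compared groups alone, series and slide blocks, scan day and arrays left out.

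Same-numbered arrays deviated together (every r over 0.1, 0.11 to 0.56) for both IFN-γ, both LPS, the IL-4, dexamethasone and immunoglobulin comparisons. The series number, which the labels give, thus goes with a shared deviation there. Series 1 was scanned on day 2 and series 2 and 3 on day 1. Same-numbered arrays also shared a slide for IFN-γ and LPS in the Mreg culture, IL-4 and immunoglobulin. The parts of slide and scan day in the shared deviation were not tested. The arrays lay on 9 slides and were scanned on 2 days. Monocytes, M0, M1 and M2a shared a set of slides. MΦ_IFN-γ, M2b, M2c and Mo-DC shared another set, and the Mreg groups shared the remaining slides. Slide therefore cannot be told apart from group between Mreg and M-CSF cultures, for dexamethasone, and for IFN-γ and LPS in M-CSF macrophages. The difference of the IFN-γ responses shares this limit.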

Additional observations from a re-analysis of the deposited data

Results flagged for a closer look

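The IFN-γ difference of Slc11a1 was below 0 in every series of the Mreg culture and above 0 in every series of M-CSF macrophages. The log2 difference was -0.0935 in the Mreg culture (-0.11, -0.06 and -0.11 in series 1 to 3), which did not pass the test (limma, adjusted p = 0.814), and 0.672 in M-CSF macrophages (0.71, 0.61 and 0.69). Over all genes the median difference was -0.06 in the Mreg culture, near that of Slc11a1, and -0.01 in M-CSF macrophages. The test of the difference between the responses gave -0.77 ± 0.26 and did not pass over all 36 arrays (limma, adjusted p = 0.161), but passed when the 4 compared groups were fitted alone (adjusted p = 0.0199).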

How the results depend on the processing

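Most counts of members called stayed within 1.5 times of the main count. The exceptions were the difference of IFN-γ responses (1 call in place of 0 with only the compared groups fitted, Slc11a1), IL-4 (4 in place of 2, both with the slide as a random block and with only the compared groups fitted), dexamethasone (2 in place of 4 on scan day 1 alone), unsorted against sorted Mreg (1 in place of 0 with the slide block) and Mo-DC (3 in place of 6 with only the compared groups fitted). With 1 array left out, the counts ran from 4 to 5 for IFN-γ in M-CSF macrophages, 2 to 3 for Mreg against MΦ_IFN-γ, 3 to 5 for Mreg_+LPS against M1, 2 to 3 for IL-4, 2 to 3 for dexamethasone, 0 to 2 for unsorted against sorted Mreg and 4 to 6 for Mo-DC. They stayed at 5 for IFN-γ in the Mreg culture, 4 for Mreg_no IFN-γ against M0, 8 for M0 against monocytes, and 0 for immunoglobulin coating and for the difference of responses. The mean of the Slc11a2 probes turned its sign in Mreg_+LPS against M1 (0.762 in place of -0.471) and in Mo-DC against MΦ_IFN-γ (0.401 in place of -0.325). With the series number as a replicate block, IL-4 on Hp (-2.16) became a call and no other member's call changed. The cause of these changes was not tested. Normexp correction moved the median of all genes by up to 0.25 on the log2 scale. Signal over background limits Hamp outside Mreg_+LPS and Cp in monocytes and the Mreg cultures without LPS.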
